A study of Mus musculus with 12 samples.

Results

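The Wnt ligands and their receptors are described here in cultured mouse embryonic salivary glands: the 19 Wnt ligand genes, the 10 Frizzled receptor genes and 5 further receptor genes (Lrp5, Lrp6, Ryk, Ror1 and Ror2). Every row of the count table whose Ensembl identifier carries one of these symbols was taken, and all 34 were found among the 52636 genes listed. RNA of whole glands was sequenced after ribosomal RNA depletion in 12 libraries, from glands taken at stage E13.5 (days of embryonic development) and grown for 2 days on filters. The FGFRi group held 3 libraries of wild-type glands grown with SU5402 at 2.5 µM, an inhibitor of FGF receptor kinases that can reach every cell of the explant, and the DMSO group held 3 libraries of wild-type glands given only that solvent. The HOM group held 2 libraries of K14Cre-Fgfr2b -/- glands, in which Cre recombinase under the keratin 14 promoter removes the epithelial isoform of FGF receptor 2, so that the deletion is limited to cells in which that promoter has been active. The HET and WT groups held 2 libraries each of heterozygous and wild-type littermates. These 6 libraries of the cross had no treatment, and whether the HET and WT glands carried Cre is not given in the sources used here.

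Wnt proteins are secreted, lipid-carrying signals. They bind Frizzled receptors, and with Lrp5 or Lrp6 as a co-receptor they stabilise β-catenin, which turns on target genes with TCF/LEF factors. With Ror1, Ror2 or Ryk they can instead steer cell shape, polarity and movement without β-catenin. In the developing salivary gland Wnt signalling is known from the mesenchyme and the ducts, and FGF signalling from the growing end buds.

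The upstream sequence is shown for the 4 genes whose change with FGFRi differed from their change in HOM glands, and for Wnt11, which also changed in HET glands. Each is the 250 bases before the annotated start in RefSeq's mouse build GRCm38.p6, 5′ to 3′ on the strand of the gene. Where several starts are listed (3 for Wnt5b, 2 for Wnt11), the one farthest upstream was taken. Wnt4 lies on the plus strand (chr4:137277385-137277634), Wnt5b on the minus strand (chr6:119544348-119544597), Fzd5 on the minus strand (chr1:64737751-64738000), Fzd9 on the minus strand (chr5:135251048-135251297) and Wnt11 on the plus strand (chr7:98834862-98835111). Capitals mark the TCF/LEF motif CTTTGAT (reverse complement ATCAAAG) and the ETS motif CGGAAG (reverse complement CTTCCG), searched on both strands, with no overlap between matches.
Wnt4: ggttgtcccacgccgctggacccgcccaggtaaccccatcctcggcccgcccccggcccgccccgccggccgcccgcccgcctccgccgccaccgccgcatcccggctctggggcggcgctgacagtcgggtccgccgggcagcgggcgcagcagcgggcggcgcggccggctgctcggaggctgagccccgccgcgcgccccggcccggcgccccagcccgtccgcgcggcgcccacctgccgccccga
Wnt5b: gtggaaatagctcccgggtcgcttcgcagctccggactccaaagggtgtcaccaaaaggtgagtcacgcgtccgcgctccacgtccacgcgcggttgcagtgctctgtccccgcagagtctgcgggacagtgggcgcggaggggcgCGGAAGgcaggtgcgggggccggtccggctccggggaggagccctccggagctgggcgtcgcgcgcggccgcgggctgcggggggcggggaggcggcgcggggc
Fzd5: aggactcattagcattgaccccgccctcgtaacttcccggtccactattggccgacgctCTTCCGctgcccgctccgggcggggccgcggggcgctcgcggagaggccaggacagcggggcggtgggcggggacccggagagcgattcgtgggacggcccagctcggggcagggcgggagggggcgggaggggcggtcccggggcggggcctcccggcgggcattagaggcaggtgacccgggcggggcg
Fzd9: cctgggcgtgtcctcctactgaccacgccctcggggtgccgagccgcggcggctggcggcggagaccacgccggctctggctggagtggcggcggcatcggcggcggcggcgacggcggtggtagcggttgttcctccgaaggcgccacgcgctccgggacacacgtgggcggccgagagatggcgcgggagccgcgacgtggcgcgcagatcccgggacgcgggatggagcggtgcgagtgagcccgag
Wnt11: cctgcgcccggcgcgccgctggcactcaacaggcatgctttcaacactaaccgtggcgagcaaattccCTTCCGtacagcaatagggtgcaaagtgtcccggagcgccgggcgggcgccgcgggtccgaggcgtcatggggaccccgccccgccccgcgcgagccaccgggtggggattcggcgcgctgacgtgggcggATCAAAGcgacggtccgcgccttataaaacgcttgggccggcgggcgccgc
The Wnt5b window holds the ETS letters 104 bases upstream of the start, and the Fzd5 window 191 bases upstream. The Wnt11 window holds the TCF/LEF letters 51 bases and the ETS letters 182 bases upstream. The windows of Wnt4 and Fzd9 hold neither. Over 27 windows of 24 member genes, 2 held the TCF/LEF letters (Wnt11 and another Wnt5b start) and 5 the ETS letters (Fzd5, Fzd7, Fzd10, Wnt5b and Wnt11), against 3.21% and 13.6% of all 32851 windows of that length. The median GC content was 71.6% in the member windows and 52.4% in all windows. A match is a run of letters and not a measured binding site.

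Total counts ran from 6043701 to 22322182 per library. Ribosomal-RNA-like features took 22.1% to 43.1% of counts (highest in FGFRi library 1) and mitochondrial genes 3.93% to 14.2%. Fgfr2, the gene targeted in the cross, had 89.2 and 94.4 CPM (counts scaled to library size) in HOM glands, 86.2 and 99.9 in HET and 101 and 99.2 in WT. A count over the whole gene does not separate the deleted epithelial isoform, so it does not check the deletion. Xist was above the summed Y-linked genes in both HOM libraries, all 3 FGFRi libraries and 2 of 3 DMSO libraries, and below them in DMSO library 2 and every HET and WT library. The HOM comparison is therefore also one of sex, and genotype and sex cannot be told apart. The stratified epithelium markers were high in DMSO library 3 and WT library 1 (609 and 554 summed CPM, against 13.2 to 347 in the others). All 15 epithelial and all 17 mesenchymal markers averaged at least 1 CPM over the 12 libraries. All were seen in every library except 1 mesenchymal marker, Twist2, which was at 0 in DMSO library 1. Whether each library stands for its own embryo is not in the labels, so p-values measure the spread between these libraries, which may be technical.

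Of the 34 genes, 25 were expressed at a level that could be tested: 10 of 19 ligands, all 10 Frizzled genes and all 5 other receptors. The same 25 averaged at least 1 CPM in at least 1 group, where CPM is scaled with edgeR's TMM factors. Wnt10b met edgeR's expression filter through its FGFRi libraries alone, with at most 0.579 CPM in any library of another group. The other 9 ligand genes (Wnt1, Wnt2, Wnt3, Wnt3a, Wnt7a, Wnt8a, Wnt8b, Wnt9b and Wnt16) had 0 to 9 counts in any library and at most 0.864 CPM. Wnt1, Wnt8a and Wnt8b had 1 count each over all 12 libraries. Wnt16, a ligand known from the developing skeleton, was the one gene of these 9 seen in every library, with 44 counts in all. Its levels were 0.367, 0.864 and 0.498 CPM in FGFRi glands and 0.318, 0.156 and 0.164 CPM in DMSO glands. Wnt2, a ligand of lung mesenchyme, had 35 counts in all, with 0.734, 0.324 and 0.387 CPM in FGFRi glands and 0, 0.0520 and 0.164 CPM in DMSO glands. For both the groups did not overlap in CPM, but the counts were very low. Wnt16 had 2, 8 and 9 counts in FGFRi libraries and 2, 3 and 1 in DMSO libraries, so its raw counts did overlap. Wnt2 had 4, 3 and 7 counts in FGFRi libraries and 0, 1 and 1 in DMSO libraries. Of all tested genes, 17.2% did not overlap on the higher side. In a fit without the filter edgeR called 0 of the 9 in FGFRi against DMSO, with 1 at an unadjusted p under 0.05, which was Wnt2 (2.62 ± 1.09, adjusted p = 0.122).

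Levels of different genes are compared here in CPM per kilobase of exon. Wnt5b had the highest ligand level, a mean of 11.02 CPM per kilobase over the 12 libraries, followed by Wnt4 with 7.20. All other ligands averaged at most 1.59 (Wnt2b). Wnt5b and Wnt4 together thus carried most of the measured ligand RNA in each group. Among receptors Fzd7 stood highest with 44.9, followed by Lrp5 with 23.1, Fzd2 with 21.04, Lrp6 with 16.2 and Ryk with 15.8. The lowest receptor genes were Fzd10 with 1.53 and Fzd4 with 1.82.

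Most of the measured Wnt ligand genes rose with FGFR inhibition: relative to DMSO, 7 of the 10 tested ligands rose and 3 did not pass the test, against 2 that rose (Wnt2b and Wnt9a) and 1 that fell when libraries were scaled to mesenchymal markers. Wnt10b, 1 of the 7, was tested only because its FGFRi libraries passed the filter. Its place among the tested ligands is therefore not independent of its rise. All 10 tested ligands had a log2 fold change above 0, with a median of 1.30 against −0.02 over all 15859 genes tested. When scaled to mesenchymal markers 6 of 10 did, with a median of 0.39 against −0.90 over all genes. Over all 25 tested members 11 rose and 3 fell, where 20.5% of all tested genes were called in either direction (9.73% higher, 10.7% lower). Calls required an adjusted p below 0.05 in edgeR's quasi-likelihood test, with Benjamini-Hochberg adjustment over all genes. In RNA from whole glands, a change in the number of cells of a type and a change of RNA per cell cannot be told apart. The libraries of the groups did not overlap for 12 members on the higher side and 5 on the lower side, against 17.2% and 20.5% of all genes.

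**Figure D1:**
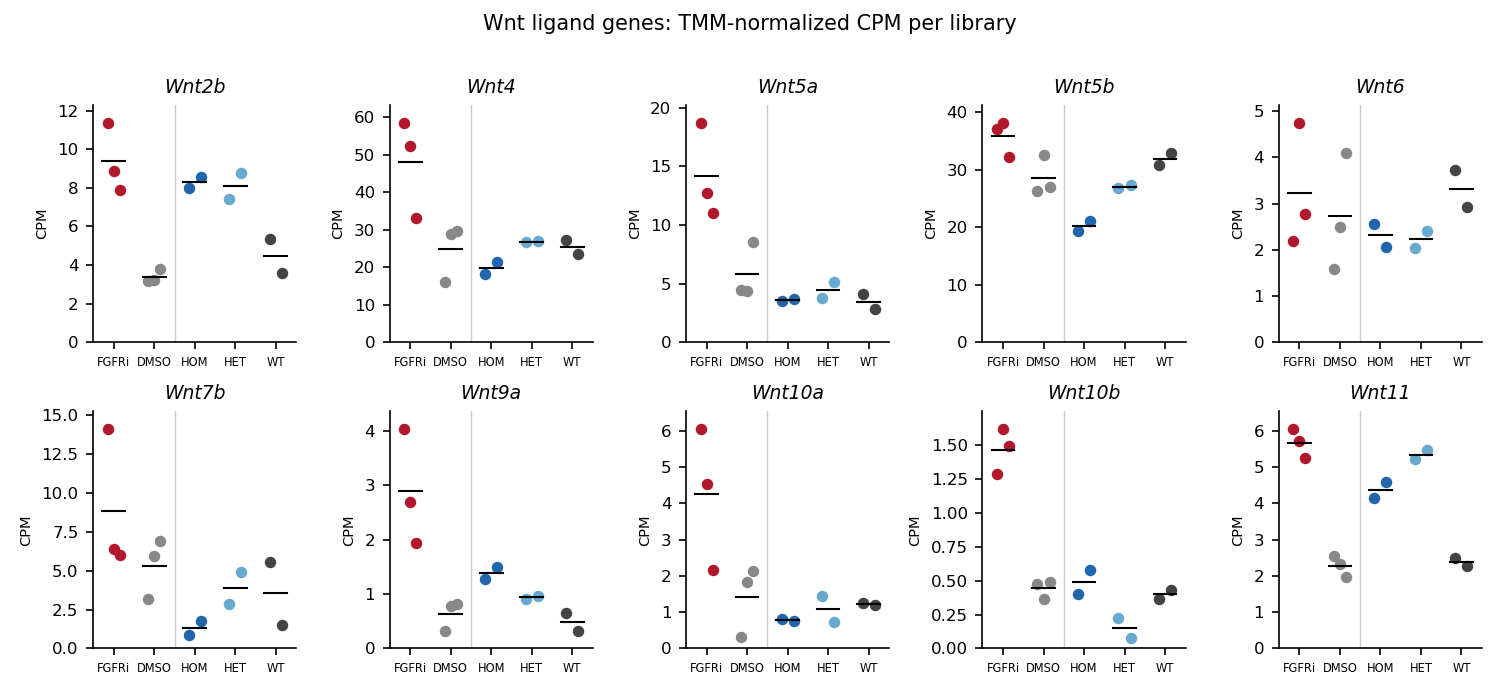
TMM-normalized CPM of the 10 tested Wnt ligand genes (vertical axis, linear from 0) in each library of the FGFRi, DMSO, HOM, HET and WT groups. Points are libraries and bars are group means. Every FGFRi library lies above every DMSO library for Wnt2b, Wnt4, Wnt5a, Wnt9a, Wnt10a, Wnt10b and Wnt11, and both HOM libraries lie below every HET and WT library for Wnt5b and Wnt4.

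Wnt4, a ligand known from kidney tubule formation and mammary branching, had 58.5, 52.4 and 33.1 CPM in FGFRi glands and 16.1, 28.98 and 29.7 CPM in DMSO glands. All FGFRi libraries lay above all DMSO libraries, although FGFRi library 3 was not far above the upper DMSO pair. The log2 fold change was 0.89 ± 0.21 (SE, n = 3 each; adjusted p = 0.00713). Wnt5a, the ligand best known for signalling through Ror2 in elongating tissues, had 18.7, 12.7 and 11.01 CPM in FGFRi glands and 4.46, 4.37 and 8.54 CPM in DMSO glands. The groups did not overlap, and DMSO library 3 stood above the other DMSO libraries. Its log2 fold change was 1.31 ± 0.27 (adjusted p = 0.00294). Wnt5b, its closest relative and the most abundant ligand per kilobase, had 37.1, 38.1 and 32.1 CPM in FGFRi glands and 26.3, 32.5 and 26.9 CPM in DMSO glands. Here the groups overlapped and the change did not pass the test, at 0.29 ± 0.10 (adjusted p = 0.0570).

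Wnt2b, a ligand of organ mesenchyme in the embryonic lung, had 11.4, 8.85 and 7.91 CPM in FGFRi glands and 3.18, 3.23 and 3.78 CPM in DMSO glands. The lowest FGFRi library had about the level of both HOM and both HET libraries, whereas the DMSO libraries were close to each other and low. The log2 fold change was 1.44 ± 0.21 (adjusted p = 0.000234). Wnt11, a ligand of the branching ureteric tips in the kidney, had 6.06, 5.72 and 5.26 CPM in FGFRi glands and 2.55, 2.34 and 1.97 CPM in DMSO glands. Both groups were tight and well apart, with a log2 fold change of 1.29 ± 0.21 (adjusted p = 0.000597). Wnt9a, known from joint formation, was a low gene with 4.04, 2.70 and 1.94 CPM in FGFRi glands and 0.318, 0.780 and 0.821 CPM in DMSO glands. It had the largest log2 fold change among the ligands, 2.02 ± 0.43 (adjusted p = 0.00413), with a 95% interval of 1.10 to 2.93.

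Wnt10a and Wnt10b, ligands of ectodermal organs such as teeth and mammary buds, were low in all groups and rose with FGFRi. Wnt10a had 6.06, 4.54 and 2.16 CPM in FGFRi glands and 0.318, 1.82 and 2.13 CPM in DMSO glands. FGFRi library 3 and DMSO library 3 almost met, and the log2 fold change was 1.43 ± 0.48 (adjusted p = 0.0495). That call was lost without DMSO library 1 or 2 or without FGFRi library 1 or 2, with an adjusted p up to 0.183. It was also lost with limma-voom, with sex as a covariate and with a block by replicate number. With the compared groups alone, and when scaled to mesenchymal markers, Wnt10a was not called either. Wnt10b had 1.28, 1.62 and 1.49 CPM in FGFRi glands and 0.478, 0.364 and 0.493 CPM in DMSO glands, well apart. The log2 fold change of Wnt10b was 1.79 ± 0.45 (adjusted p = 0.0111), and without DMSO library 2 the adjusted p was 0.0789. This call was also lost with DESeq2, with sex as a covariate and when scaled to mesenchymal markers. The DMSO libraries held 3, 7 and 3 counts of Wnt10b. Wnt6, a ligand of surface ectoderm, averaged 3.24 ± 1.34 CPM in FGFRi glands and 2.73 ± 1.27 CPM in DMSO glands (SD). Wnt7b, a ligand of lung and ureteric epithelium, averaged 8.84 ± 4.58 CPM in FGFRi glands and 5.34 ± 1.93 CPM in DMSO glands. Both of these overlapped between the groups and did not pass the test (adjusted p = 0.621 and 0.328).

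Some ligands lie next to each other in the genome. In RefSeq's GRCm38.p6 annotation 4 pairs of ligand genes have 0 protein-coding genes between them: Wnt6 and Wnt10a on chromosome 1, Wnt3a and Wnt9a and also Wnt9b and Wnt3 on chromosome 11, and Wnt10b and Wnt1 on chromosome 15. Wnt10a, Wnt9a and Wnt10b rose with FGFRi, while Wnt6 did not pass the test and Wnt3a and Wnt1 were too low to be tested.

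The Frizzled genes moved in both directions: 2 rose, 2 fell and 6 did not pass the test, with a median log2 fold change of −0.08, whereas 6 rose and 1 fell when scaled to epithelial markers, 0 rose and 9 fell when scaled to mesenchymal markers and 0 rose and 1 fell with library totals. Of all 15859 genes, 9049 rose and 144 fell under the epithelial scaling, and 272 rose and 11305 fell under the mesenchymal scaling. Without a marker scaling the share of all genes called was 9.73% higher and 10.7% lower. Fzd5, a receptor for canonical Wnts known from gut Paneth cells and the eye, had 16.5, 20.1 and 19.04 CPM in FGFRi glands and 46.00, 49.01 and 42.2 CPM in DMSO glands. No FGFRi library came near a DMSO library. The log2 fold change was −1.30 ± 0.10 (adjusted p = 2.71e-06), a fold of 0.407. Fzd8, the nearest relative of Fzd5, averaged 19.4 ± 3.001 CPM in FGFRi glands and 23.6 ± 2.54 CPM in DMSO glands (SD), and its change of −0.28 ± 0.13 (adjusted p = 0.139) did not pass.

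Fzd1, Fzd2 and Fzd7 form a second subfamily, and its members differed. Fzd2 had 83.7, 81.1 and 74.9 CPM in FGFRi glands and 73.7, 56.1 and 67.97 CPM in DMSO glands. The FGFRi libraries lay just above the highest DMSO library, with a log2 fold change of 0.29 ± 0.10 (adjusted p = 0.0480). Fzd1 averaged 52.6 ± 9.67 CPM in FGFRi glands and 41.1 ± 3.21 CPM in DMSO glands (SD), with overlap and a change of 0.33 ± 0.11 (adjusted p = 0.0504). Fzd7, the most abundant receptor per kilobase, had 148, 183 and 173 CPM in FGFRi glands and 226, 186 and 181 CPM in DMSO glands. FGFRi library 2 lay above DMSO library 3, and the change of −0.23 ± 0.09 (adjusted p = 0.103) did not pass.

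Fzd3 and Fzd6, receptors of planar cell polarity, were both well expressed. Fzd6 had 42.2, 49.8 and 47.1 CPM in FGFRi glands and 61.9, 55.7 and 53.2 CPM in DMSO glands. The FGFRi libraries were all lower, and the log2 fold change was −0.29 ± 0.09 (adjusted p = 0.0283). Fzd3 overlapped and changed by 0.06 ± 0.10 (adjusted p = 0.721). Of the remaining subfamily, Fzd10 had 6.61, 7.02 and 5.98 CPM in FGFRi glands and 3.02, 3.80 and 4.93 CPM in DMSO glands. All FGFRi libraries were higher, at a log2 fold change of 0.74 ± 0.23 (adjusted p = 0.0343). Fzd9 had 7.34, 10.04 and 10.5 CPM in FGFRi glands and 13.8, 11.7 and 12.8 CPM in DMSO glands. The groups did not overlap, yet the change of −0.40 ± 0.15 (adjusted p = 0.0804) did not pass. Fzd4, the Norrin receptor of retinal vessels, changed by 0.15 ± 0.12 (adjusted p = 0.408). With DESeq2 the calls of Fzd6 and Fzd10 were lost. With sex as a covariate, and with a block by replicate number, those of Fzd2, Fzd6 and Fzd10 were lost. The calls of Fzd2, Fzd6 and Fzd10 were also each lost when any of 4 single libraries was left out. For Fzd2 these were DMSO 2 or 3 or FGFRi 1 or 2 (adjusted p up to 0.266), for Fzd6 DMSO 1 or 2 or FGFRi 1 or 3 (up to 0.153), and for Fzd10 DMSO 1 or 2 or FGFRi 1 or 2 (up to 0.109).

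Among the co-receptors Ror1 and Ror2 rose and Lrp5 fell, although both Ror genes lay below 0 when scaled to mesenchymal markers and the Lrp5 fall did not pass with library totals (−0.49, adjusted p = 0.157) or with the epithelial scaling (−0.04, adjusted p = 0.742). Lrp5, known from bone mass and retinal vessels, had 143, 183 and 164 CPM in FGFRi glands and 267, 229 and 212 CPM in DMSO glands. All FGFRi libraries were lower, at a log2 fold change of −0.53 ± 0.10 (adjusted p = 0.00221). Lrp6, its partner in β-catenin signalling, had 198, 197 and 187 CPM in FGFRi glands and 226, 207 and 221 CPM in DMSO glands. It too was lower in every FGFRi library, but the change of −0.17 ± 0.07 (adjusted p = 0.123) did not pass. Ror1 had 34.7, 29.4 and 31.3 CPM in FGFRi glands and 21.01, 20.97 and 17.6 CPM in DMSO glands. The groups were far apart, at 0.66 ± 0.10 (adjusted p = 0.000467). Ror2, the tyrosine kinase receptor through which Wnt5a acts on the growing skeleton, had 18.5, 19.3 and 16.4 CPM in FGFRi glands and 14.6, 13.8 and 12.5 CPM in DMSO glands. The groups did not overlap and the change was 0.39 ± 0.11 (adjusted p = 0.0217). Without DMSO library 2 or 3 or FGFRi library 2 the Ror2 call was lost, with an adjusted p up to 0.0702. It was also lost with DESeq2, with sex as a covariate and with library totals. Ryk, an atypical kinase-like Wnt receptor, averaged 72.1 ± 5.57 CPM in FGFRi glands and 71.2 ± 6.35 CPM in DMSO glands, a change of 0.02 ± 0.08 with a 95% interval of −0.16 to 0.19.

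**Figure D2:**
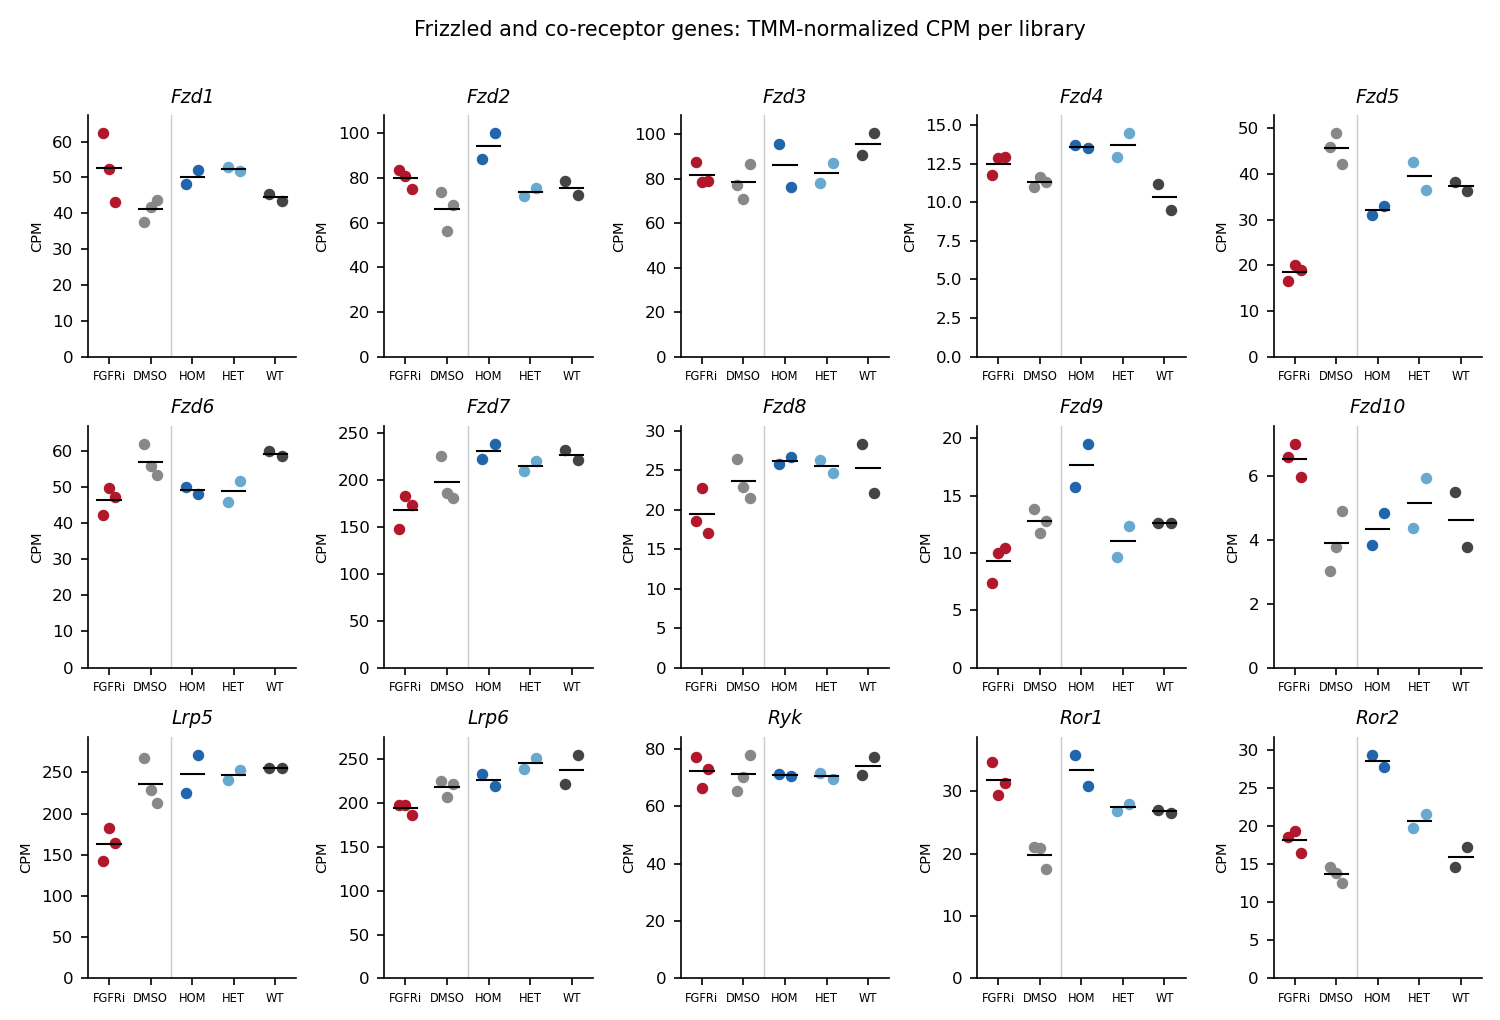
TMM-normalized CPM of the 10 Frizzled genes, Lrp5, Lrp6, Ryk, Ror1 and Ror2 (vertical axis, linear from 0) in each library of the FGFRi, DMSO, HOM, HET and WT groups. Points are libraries and bars are group means. Fzd5 sits between 16.5 and 20.1 CPM in FGFRi glands and between 42.2 and 49.0 CPM in DMSO glands, and Ror2 is highest in the HOM libraries.

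These calls depend on what the libraries are scaled to. With library totals in place of TMM, 8 members rose and 1 fell with FGFRi, where 1018 of all genes rose and 285 fell. With TMM 1543 of all genes rose and 1702 fell. Scaled to the summed epithelial markers, 19 rose and 1 fell, with the median of all genes shifted to 0.48. Scaled to the summed mesenchymal markers, 2 rose (Wnt2b and Wnt9a) and 14 fell, with the median of all genes at −0.90. Against that shift Wnt4 had a log2 fold change of −0.02, Ror1 of −0.23, Fzd10 of −0.15, Ror2 of −0.50, Fzd2 of −0.63 and Fzd5 of −2.18. Fzd6 was at 0.20 with the epithelial scaling. Without DMSO library 2, or without FGFRi library 2, 7 members rose in place of 11. Of all genes, 1043 and 1285 rose in these 2 fits, in place of 1543. Without DMSO library 3 and WT library 1, 8 rose and 2 fell. With the sex of the library as a covariate, 7 rose and 2 fell, where 1038 of all genes rose and 1115 fell.

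Cell type markers moved along with the ligands. The 15 epithelial markers summed to 2049, 2294 and 2336 CPM in FGFRi glands and 3205, 3336 and 2871 CPM in DMSO glands, and all 15 fell. The 17 mesenchymal markers, led by Col3a1 and Col1a1, summed to 5239, 4318 and 3731 CPM in FGFRi glands and 2275, 2322 and 2369.6 CPM in DMSO glands, and 15 rose. Skeletal muscle markers summed to 732, 186 and 826 CPM in FGFRi glands and 31.4, 72.4 and 94.2 CPM in DMSO glands, and 12 of 13 rose. Of 10 Schwann cell and glia markers 6 rose and 2 fell, with a median log2 fold change of 1.35, while their sum was lower, at 269.5, 309.8 and 309.8 CPM in FGFRi glands and 437, 377 and 356 CPM in DMSO glands. Of 9 tested neuron markers 3 rose, with a median of 0.83 and sums of 247, 328 and 234 CPM in FGFRi glands and 258, 71.95 and 204 CPM in DMSO glands. Of 9 endothelial markers 1 rose and 1 fell. The part of these cell types in the ligand changes was not tested.

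Summed over all 19 ligands, the level was 42.96, 39.1 and 29.3 CPM per kilobase in FGFRi glands and 17.6, 24.6 and 24.7 in DMSO glands. The group means were 37.1 ± 7.02 with FGFRi and 22.3 ± 4.06 with DMSO (SD). The summed Frizzled level was 101 ± 4.66 with FGFRi and 108 ± 8.07 with DMSO, so the ratio of ligand to Frizzled RNA was 0.367 ± 0.0699 with FGFRi and 0.208 ± 0.0507 with DMSO. All 3 FGFRi libraries had a higher ratio than any DMSO library. Within the ligand sum, Wnt5b made up 36.8% ± 4.35 in FGFRi glands and 49.0% ± 7.54 in DMSO glands, and Wnt4 30.4% ± 3.06 in FGFRi glands and 26.2% ± 3.85 in DMSO glands (SD). Not divided by length, Wnt5b made up 27.0% with FGFRi and 38.1% with DMSO, and Wnt4 35.1% with FGFRi and 32.1% with DMSO.

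**Figure D3:**
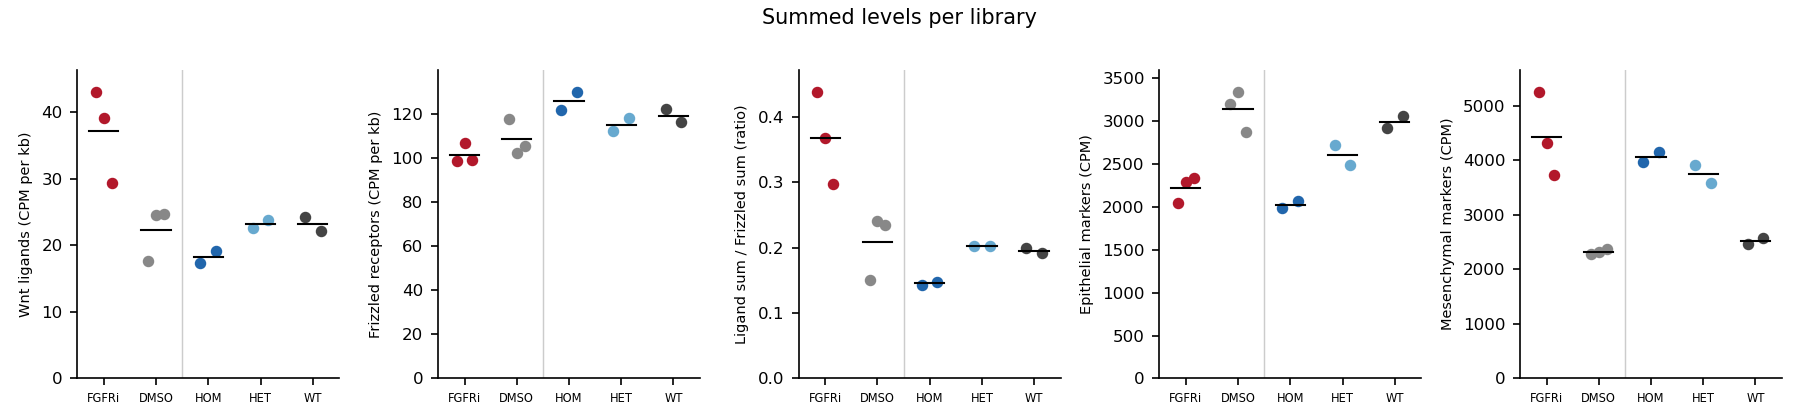
Summed levels in each library of the FGFRi, DMSO, HOM, HET and WT groups: Wnt ligands and Frizzled receptors (CPM per kilobase), their ratio, and epithelial and mesenchymal markers (CPM), each on a linear axis from 0. Points are libraries and bars are group means. The ligand to Frizzled ratio runs from 0.297 to 0.437 in FGFRi glands and from 0.150 to 0.241 in DMSO glands, and is 0.142 and 0.148 in HOM glands.

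4 of the 25 members were called in HOM glands relative to WT and HET together. Fzd2 (below 0 when scaled to mesenchymal markers), Fzd9 and Ror2 rose, Wnt5b fell and 21 of 25 did not pass the test. Over all tested genes 5.88% were called (3.44% higher, 2.44% lower). Among the 10 ligands, whose median log2 fold change was −0.19 against 0.00 over all genes, Wnt5b was the one call. That call was lost with the epithelial scaling, with sex as a covariate and with library totals, where 1 other ligand fell. In the fit without the filter, and with the compared groups alone, 2 ligands fell. Both HOM libraries lay above all 4 WT and HET libraries for 5 members and below them for 3, against 13.4% and 12.2% of all genes.

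Wnt5b had 19.3 and 21.1 CPM in HOM glands, 26.7 and 27.3 in HET and 30.8 and 32.9 in WT. HOM was lowest and WT highest, with HET between them and no overlap between any of the 3 genotypes. The log2 fold change against WT and HET was −0.53 ± 0.11 (SE, n = 2 against 4; adjusted p = 0.00959), and the call was lost without HOM library 1 or 2 (adjusted p up to 0.0842). Ror2 had 29.4 and 27.7 CPM in HOM glands, 19.7 and 21.5 in HET and 14.6 and 17.3 in WT. HOM was highest and WT lowest, again with no overlap. Its log2 fold change was 0.66 ± 0.10 (adjusted p = 0.00156), and it was called whichever single library was left out. Fzd9, known from bone and hippocampus, had 15.8 and 19.5 CPM in HOM glands, 9.69 and 12.4 in HET and 12.6 and 12.6 in WT. HOM library 2 stood well above the rest, and the log2 fold change was 0.59 ± 0.14 (adjusted p = 0.0224). Fzd2 had 88.6 and 100.2 CPM in HOM glands, 71.8 and 75.7 in HET and 78.5 and 72.4 in WT. Both HOM libraries were highest, at 0.34 ± 0.10 (adjusted p = 0.0498). The Fzd2 call was lost whichever of the 6 libraries was left out (adjusted p up to 0.491), and that of Fzd9 was lost without HET 1, HOM 2, WT 1 or WT 2 (up to 0.410).

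Other ligands were compared in the same libraries. Wnt4 had 18.1 and 21.3 CPM in HOM glands, 26.6 and 26.9 in HET and 27.2 and 23.5 in WT. Both HOM libraries were lowest, but the change of −0.40 ± 0.22 (adjusted p = 0.348) did not pass. Wnt7b had 0.880 and 1.78 CPM in HOM glands, 2.88 and 4.90 in HET and 5.57 and 1.51 in WT. WT library 2 lay within the HOM range and the change of −1.42 ± 0.51 (adjusted p = 0.124) did not pass, with a 95% interval of −2.51 to −0.33. Wnt9a had 1.28 and 1.49 CPM in HOM glands, 0.908 and 0.965 in HET and 0.659 and 0.324 in WT, above the controls in both libraries but not called, at 1.00 ± 0.42 (adjusted p = 0.197). The remaining ligands gave log2 fold changes of −0.58 ± 0.56 for Wnt10a, −0.26 ± 0.35 for Wnt6, −0.13 ± 0.29 for Wnt5a, 0.30 ± 0.19 for Wnt11, 0.45 ± 0.18 for Wnt2b and 0.99 ± 0.50 for Wnt10b, with none past the test.

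The remaining receptors were not called in the cross. Fzd5 had 31.1 and 33.1 CPM in HOM glands, 42.7 and 36.4 in HET and 38.4 and 36.3 in WT, lower in both HOM libraries but not called at −0.26 ± 0.10 (adjusted p = 0.145). Ror1 had 35.9 and 30.9 CPM in HOM glands, 26.9 and 28.1 in HET and 27.1 and 26.5 in WT, higher in both HOM libraries but not called at 0.30 ± 0.10 (adjusted p = 0.0965). Lrp5 overlapped, at −0.01 ± 0.11 with a 95% interval of −0.24 to 0.21. Lrp6 changed by −0.10 ± 0.08 and Ryk by −0.03 ± 0.08. The other Frizzled genes (Fzd1, Fzd3, Fzd4, Fzd6, Fzd7, Fzd8 and Fzd10) had log2 fold changes from −0.17 (Fzd10) to 0.18 (Fzd4), with overlapping libraries.

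Marker sums moved here too, also between the control genotypes. Epithelial markers summed to 1982 and 2074 CPM in HOM glands, 2727 and 2494 in HET and 2916 and 3059 in WT, and 7 of 15 fell in HOM. Mesenchymal markers summed to 3967 and 4143 CPM in HOM glands, 3910.0 and 3585 in HET and 2468 and 2573 in WT, and 10 of 17 rose in HOM. Skeletal muscle markers summed to 225 and 249 CPM in HOM glands, 116 and 220.2 in HET and 21.7 and 16.5 in WT, and 8 of 13 rose. Of 10 Schwann cell and glia markers 4 rose in HOM, with a median log2 fold change of 0.80. Their part in the changes was not tested. Scaled to the epithelial markers, 17 members rose and 0 fell in HOM, with the median of all genes at 0.46 and 9132 of all genes higher. Scaled to the mesenchymal markers, 0 rose and 8 fell, with that median at −0.40, 5616 of all genes lower and Fzd2 at −0.06. With sex as a covariate, which these data can estimate from the DMSO libraries alone, edgeR called no member, and 2 of 25 had an unadjusted p under 0.05. Over all 15859 genes that fit called 18 higher and 28 lower, in place of 546 and 387. The Ror2 change was 0.68 ± 0.20 with the covariate (adjusted p = 0.214), close to its value without it, while that of Fzd2 was 0.01 and that of Wnt5b −0.24. The covariate is set by DMSO library 2 against DMSO libraries 1 and 3. In these values sex therefore cannot be told apart from any other difference of that library. Without DMSO library 3 and WT library 1, Ror2 and Wnt5b were called and Fzd2 and Fzd9 were not. Leaving out HET 1, HOM 2, WT 1 or WT 2 also gave 1 member that rose in place of 3.

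Set against each control genotype alone, HOM glands differed from WT in 4 members and from HET in none by edgeR's test. Relative to WT, Wnt2b (0.87 ± 0.23, adjusted p = 0.0286), Wnt11 (0.88 ± 0.24, adjusted p = 0.0366) and Ror2 (0.85 ± 0.12, adjusted p = 0.000792) rose and Wnt5b (−0.65 ± 0.12, adjusted p = 0.00520) fell, where 7.56% of all genes were called (4.5% higher, 3.06% lower). The Wnt11 call was lost whichever of the 4 libraries was left out (adjusted p up to 0.241), that of Wnt2b without HOM 1, HOM 2 or WT 2 (up to 0.275) and that of Wnt5b without WT 2 (0.0603). Ror2 was called each time. Without HOM 1 or HOM 2 the count was 2, and without WT 2 it was 1. With sex as a covariate edgeR called 0 of the 25 against WT, with 3 at an unadjusted p under 0.05. Of all 15859 genes, that fit called 70 higher and 46 lower. Relative to HET, where 1.49% of all genes were called (0.618% higher, 0.876% lower), 8 members had an unadjusted p under 0.05, DESeq2 called 0 and limma-voom 2. The smallest adjusted p there were 0.0559 for Fzd9 and 0.0660 for Ror2.

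Wnt11 was the one member called between HET and WT glands, with 5.22 and 5.47 CPM in HET and 2.49 and 2.27 CPM in WT. The log2 fold change was 1.16 ± 0.24 (adjusted p = 0.0285), where 1.22% of all genes were called (0.851% higher, 0.372% lower), and the call was lost whichever of the 4 libraries was left out (adjusted p up to 0.268). The HOM libraries, at 4.16 and 4.59 CPM, lay between HET and WT. Mesenchymal markers also differed between HET and WT, with 6 of 17 higher in HET, and their part was not tested. Between DMSO and untreated WT glands edgeR, DESeq2 and limma-voom each called 0 members, where edgeR called 2.26% of all genes (1.27% higher, 0.984% lower), and 3, 5 and 4 members had an unadjusted p under 0.05. Ror1 had the smallest adjusted p, with 21.01, 20.97 and 17.6 CPM in DMSO glands and 27.1 and 26.5 CPM in WT glands (−0.42 ± 0.11, adjusted p = 0.0711).

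The FGFRi effect minus the HOM effect was tested in the same model, to see where inhibitor and deletion differed. Wnt4 and Wnt5b had a higher and Fzd5 and Fzd9 a lower effect with FGFRi, 4 of 25 members, where 2.77% of all genes were called (1.36% higher, 1.41% lower). The difference in log2 fold change was −1.04 ± 0.14 (adjusted p = 0.000942) for Fzd5, 0.82 ± 0.15 (adjusted p = 0.00880) for Wnt5b, −0.99 ± 0.21 (adjusted p = 0.0215) for Fzd9 and 1.29 ± 0.30 (adjusted p = 0.0358) for Wnt4. Wnt4, Wnt5b and Fzd9 had effects of opposite sign in the 2 experiments, although for each of them 1 of these effects did not pass alone. For Fzd5 both values were below 0, and the FGFRi value was larger in size. The Fzd5 and Wnt5b differences were called whichever single library was left out. That of Fzd9 was lost without DMSO 1, HOM 2 or WT 1 (adjusted p up to 0.187). That of Wnt4 was lost when 1 of 8 libraries was left out, namely HET 1, HET 2, HOM 1, HOM 2, FGFRi 1, FGFRi 2, WT 1 or WT 2 (up to 0.147). With sex as a covariate the Fzd5 (−1.13 ± 0.16, adjusted p = 0.00117) and Wnt5b (0.66 ± 0.16, adjusted p = 0.0384) differences were called. Those of Fzd9 (−0.88 ± 0.24, adjusted p = 0.0600) and Wnt4 (1.09 ± 0.34, adjusted p = 0.107) were not. The Wnt4 difference was also not called with limma-voom (adjusted p = 0.0521), the epithelial scaling (0.0678) or a block by replicate number. That of Wnt5b was not called with library totals (0.413) or the mesenchymal scaling, and that of Fzd9 was not with library totals (0.0684). Without HOM 2 or without WT 1, 2 differences were called in place of 4. Fzd2 and Ror2 were called in both experiments in the same direction, 12 members with FGFRi alone and 2 in HOM alone. With sex as a covariate neither Fzd2 nor Ror2 was called in either experiment. For the ligands that rose with FGFRi and not in HOM, other than Wnt4, the difference itself did not pass, for example Wnt5a at 1.45 ± 0.40 (adjusted p = 0.0673) and Wnt11 at 0.99 ± 0.29 (adjusted p = 0.0820).

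**Figure D4:**
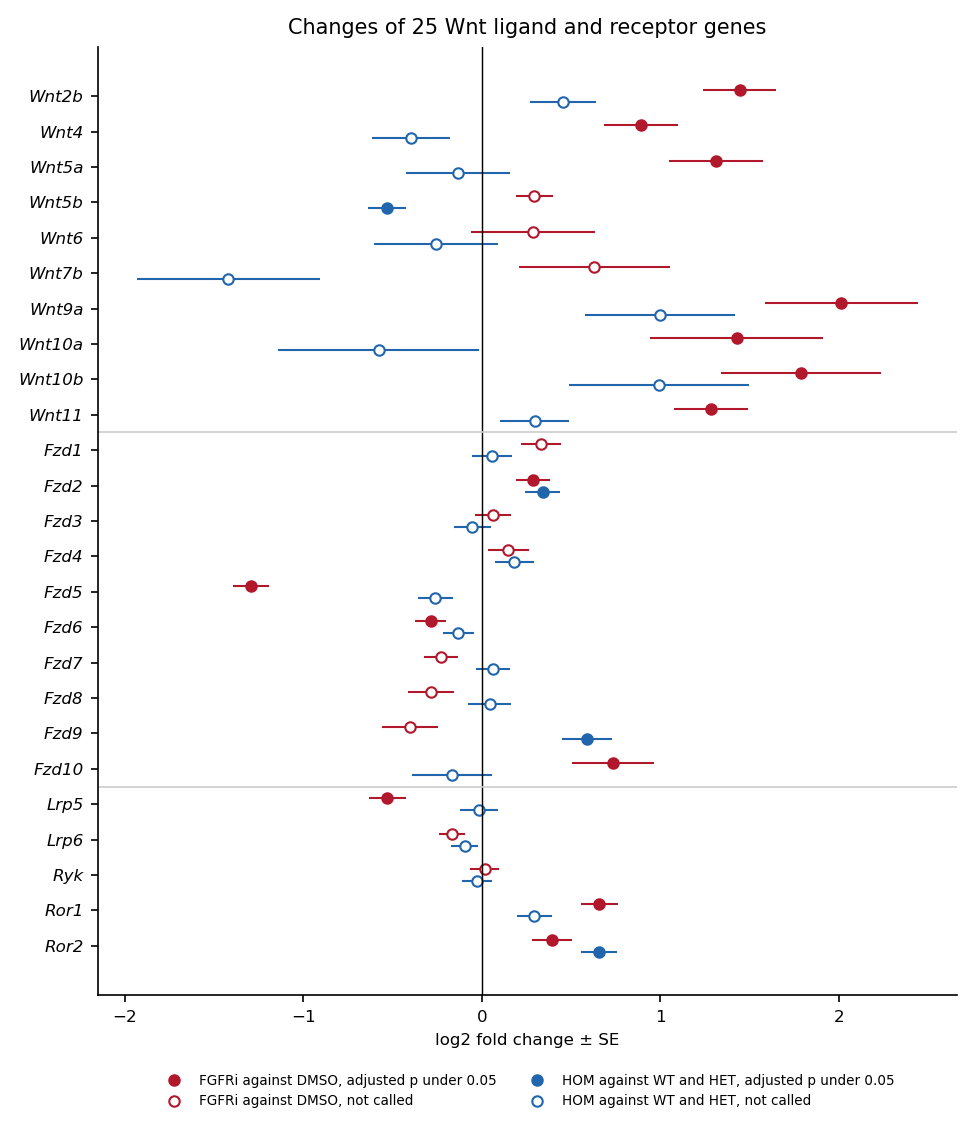
Log2 fold change with its SE (horizontal axis) of the 25 tested genes, ligands above, Frizzled genes in the middle and co-receptors below, for FGFRi against DMSO (n = 3 each) and HOM against WT and HET (n = 2 against 4). Filled points passed an adjusted p of 0.05. All 10 ligand values lie above 0 with FGFRi (6 of 10 when scaled to mesenchymal markers), and 4 lie above 0 in HOM (5 with library totals, 7 when scaled to epithelial and 3 when scaled to mesenchymal markers).

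The other genes of the pathway were read from lists grouped by function. Their counts stand against 9.73% higher and 10.7% lower over all genes with FGFRi and 3.44% and 2.44% in HOM, and under the marker scalings against the shift of all genes given above. With sex as a covariate edgeR called 0 genes of each of these lists in HOM glands, where it called 46 of all 15859 genes. Of 10 tested genes of Wnt maturation, secretion and capture at the cell surface, 4 rose with FGFRi and 6 did not pass (3 rose and 5 fell when scaled to mesenchymal markers). Those that rose were Reck (1.48 ± 0.14, adjusted p = 1.19e-05) and Adgra2 (1.27 ± 0.13, adjusted p = 2.36e-05), which together form a co-receptor for Wnt7 ligands, and Sulf2 (0.84 ± 0.15, adjusted p = 0.00108) and Sulf1 (1.75 ± 0.36, adjusted p = 0.00333), which trim heparan sulphate. In HOM glands Adgra2 (0.76 ± 0.13, adjusted p = 0.00279) and Reck (0.54 ± 0.13, adjusted p = 0.0245) rose and Gpc4, a heparan sulphate carrier (−0.42 ± 0.10, adjusted p = 0.0268), fell.

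Of 10 tested genes of the R-spondin system and of Wnt receptor turnover, 7 rose with FGFRi and 3 did not pass. When scaled to mesenchymal markers 4 rose and 4 fell. The R-spondin system raises Wnt receptors at the cell surface, but the list is not limited to genes that do so. The first 4 by p were Rspo3 (1.67 ± 0.19, adjusted p = 4.39e-05), Lgr6 (1.34 ± 0.18, adjusted p = 0.000176), Rspo2 (2.50 ± 0.46, adjusted p = 0.00148) and Lgr4 (0.48 ± 0.12, adjusted p = 0.00898). Rspo2, a ligand of this system, had 4.22, 4.21 and 3.04 CPM in FGFRi glands and 0.796, 0.364 and 1.15 CPM in DMSO glands, with no overlap. In HOM glands Rspo1 rose (1.05 ± 0.26, adjusted p = 0.0285) and 9 did not pass. The median log2 fold change of this list was 0.95 with FGFRi and 0.02 in HOM.

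Of 14 tested secreted modulators and feedback targets, 9 rose, 1 fell and 4 did not pass with FGFRi, and 3 rose and 4 fell when scaled to mesenchymal markers. Axin2, a feedback inhibitor that β-catenin switches on, had 44.4, 36.8 and 29.6 CPM in FGFRi glands and 8.44, 11.8 and 15.1 CPM in DMSO glands. The libraries were far apart, at 1.62 ± 0.18 (adjusted p = 3.03e-05). In the cross Axin2 had 18.2 and 19.5 CPM in HOM glands, 15.7 and 19.5 in HET and 17.9 and 14.5 in WT, with overlap. The secreted Wnt binders Sfrp4 (3.07 ± 0.33, adjusted p = 2.46e-05) and Sfrp2 (1.82 ± 0.13, adjusted p = 1.74e-06) rose with FGFRi, and Sfrp1 (−0.58 ± 0.11, adjusted p = 0.00191) fell. In HOM glands edgeR called 0 of these 14, with 5 at an unadjusted p under 0.05, DESeq2 called 0 and limma-voom 1. The list's median log2 fold change was 0.74 with FGFRi and 0.23 in HOM.

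Of 26 components that act inside the cell, 3 rose, 1 fell and 22 did not pass with FGFRi, with a median of 0.02, a share called no higher than the 20.5% over all genes. Under the scalings 22 of them rose (epithelial markers) and 23 fell (mesenchymal markers), where 9049 and 11305 of the 15859 genes did so. Those called were the co-repressor Tle2 (0.76 ± 0.15, adjusted p = 0.00299), the β-catenin co-factor Pygo1 (0.47 ± 0.14, adjusted p = 0.0296), the Apc relative Apc2 (0.65 ± 0.22, adjusted p = 0.0468) and the Frizzled adaptor Dvl1 (−0.37 ± 0.09, adjusted p = 0.00758), which fell. In HOM glands edgeR called 0 of the 26, with 6 at an unadjusted p under 0.05, and DESeq2 and limma-voom called 1 each. Of 15 planar polarity genes, 2 rose, 5 fell and 8 did not pass with FGFRi, whereas 7 rose and 0 fell when scaled to epithelial and 0 rose and 12 fell when scaled to mesenchymal markers. The polarity component Prickle2 (1.12 ± 0.16, adjusted p = 0.000198) and the Dvl regulator Dact1 (1.22 ± 0.19, adjusted p = 0.000471) rose, and the cadherins Celsr2 (−0.45 ± 0.10, adjusted p = 0.00563) and Celsr1 (−0.37 ± 0.09, adjusted p = 0.0111) were among those that fell. In HOM glands Dact1 (0.79 ± 0.17, adjusted p = 0.0118) rose and 14 did not pass.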

How the data were processed

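The authors deposited raw read counts per gene for 12 libraries, as whole numbers with no normalization. Per the submitters' processing notes, bcl2fastq and STAR were used (versions not listed), with GRCm39 as the build. How reads were counted, whether by strand and on which annotation, was not given in the sources used, so reads of overlapping genes on opposite strands could be counted together. Symbols (52403 of 52636 identifiers) and exon lengths (52489) came from GENCODE M21, an annotation of build GRCm38, so no coordinates of counted genes are given.

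Counts were tested in R 4.3.3 with edgeR 4.0.16 (quasi-likelihood F test, TMM, filterByExpr with a minimum count of 10 and a minimum total of 15, 15859 genes kept). All 12 libraries entered a single model with a coefficient for each group, which left 7 residual degrees of freedom (prior 7.96) and a common biological coefficient of variation of 0.107. Two-sided p-values were corrected per contrast over all genes tested (Benjamini-Hochberg), with a threshold of 0.05. The SE is the log2 fold change divided by the square root of F, and 95% intervals use the moderated degrees of freedom and are not adjusted for the number of genes. HOM was compared with the average of its WT and HET littermate coefficients. Reads carry no molecular identifiers, so counting error is only part of the error. Replicate libraries differed far beyond counting noise (chi-square per degree of freedom 18.2 to 158), so none was a second copy of another.

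The members and lists were chosen with earlier results of these data known. Values in every library are given for members called in a main comparison or in the test of the difference and for the ligand and receptor with the highest level per kilobase, and up to 4 genes of each pathway list are named, in order of p. The values of Wnt2, Wnt16, Lrp6, Rspo2 and Axin2 by library, and those of Wnt7b in the cross, were picked after the values were seen. One symbol of the lists (Tiki1) was not matched. Alternatives were other scalings, filters and gene sets, the compared groups alone, a replicate block, a sex covariate, the removal of single libraries, DESeq2 1.42.0 and limma-voom (limma 3.58.1). After the data were seen, removal of ribosomal-RNA-like features, removal of DMSO 3 and WT 1, and a block with WT numbers crossed were added. Promoter sequences are from RefSeq. Protein sequences were not used here.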

Additional observations from a re-analysis of the deposited data

Results flagged for a closer look

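4 genes had an FGFRi effect that differed from their HOM effect by edgeR's test of the difference with Benjamini-Hochberg adjustment, on the log2 scale. Wnt4 differed by 1.29 ± 0.30 (SE, adjusted p = 0.0358). Its FGFRi libraries all lay above the DMSO libraries, and both HOM libraries lay below every WT and HET library. The HOM change of Wnt4 alone did not pass the test. Wnt5b differed by 0.82 ± 0.15 (adjusted p = 0.00880), Fzd5 by −1.04 ± 0.14 (adjusted p = 0.000942) and Fzd9 by −0.99 ± 0.21 (adjusted p = 0.0215). With sex as a covariate the Fzd5 and Wnt5b differences were called, and those of Wnt4 (adjusted p = 0.107) and Fzd9 (adjusted p = 0.0600) were not. The drug was given to wild-type glands while the deletion is limited to cells of the keratin 14 lineage and both HOM libraries had Xist, so the cells reached and sex cannot be told apart from the kind of perturbation.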

How the results depend on the processing

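Of 27 called member changes, 12 kept their call when any 1 library was left out. Over 558 alternative values of these changes, 418 stayed on the same side of the threshold with the same sign, 133 lost the call and 7 changed sign. Where only the scaling was changed, the shift of all genes is part of the change, and otherwise the cause was not tested. For the 9 ligands with under 10 counts in every library, the fit without a filter called 0 in each comparison, with an unadjusted p under 0.05 for 1 (Wnt2, FGFRi against DMSO), and counts this low leave wide errors.

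The sign changes came from marker scalings. Fzd6 was at 0.20 with FGFRi under the epithelial scaling. Under the mesenchymal scaling Wnt4 was at −0.018, Fzd2 at −0.63, Fzd10 at −0.15, Ror1 at −0.23 and Ror2 at −0.50 with FGFRi, and Fzd2 at −0.064 in HOM. Under the epithelial scaling 19 members rose and 1 fell with FGFRi, 17 rose and 0 fell in HOM against WT and HET, 16 were called against WT and 8 against HET. Under the mesenchymal scaling 2 rose and 14 fell with FGFRi, 0 rose and 8 fell in HOM, 15 were called in HOM against WT, 13 in HET against WT and 10 in the difference. With library totals 1 fell with FGFRi and 2 were called in HOM against WT. With no filter 2 fell in HOM, 4 were called in HOM against HET and 9 in the difference.

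With the sex covariate 7 rose with FGFRi, 0 rose and 0 fell in HOM, and 0 were called against WT. Over all 15859 genes that fit called 2153 with FGFRi, 46 in HOM and 116 in HOM against WT. With the groups compared alone 2 fell in HOM, 7 were called against WT, 1 against HET and 0 in HET against WT. DESeq2 called 0 in HET against WT and limma-voom 2 in HOM against HET. Without DMSO 3 and WT 1, 1 rose in HOM and 0 were called in HET against WT.

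Between FGFRi and DMSO, libraries of the same number did not vary together (correlations of their deviations −0.0944, −0.109 and −0.0520), and none correlated best with its own number. In the cross, with 2 libraries a group, the same-number and crossed correlations are equal and opposite by construction (−0.186 and 0.186 for HOM and WT, −0.0136 and 0.0136 for HOM and HET, −0.158 and 0.158 for HET and WT), so they cannot show whether the numbers pair libraries, and the labels do not say so. With a replicate block 9 members rose and 2 fell with FGFRi, 2 rose and 1 fell in HOM, 2 were called in HOM against WT, 0 in HET against WT and 3 in the difference. With the WT numbers crossed in the block, chosen after seeing the data, 3 rose and 1 fell in HOM and 0 were called in HET against WT.

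With each library left out in turn, 7 to 13 members rose and 2 to 3 fell with FGFRi, 1 to 2 rose and 0 to 1 fell in HOM, 1 to 3 were called in HOM against WT, 0 to 0 in HOM against HET, HET against WT and DMSO against WT, and 2 to 5 in the difference. A lone library left in a group was assumed to vary like the other groups.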
